A study of Homo sapiens with 9 samples.

Results

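FABP4 and 7 other genes of fatty acid binding and lipid uptake were followed in MDA-MB-231 cells, a human triple-negative breast cancer line, that carried a MEL-18 construct or its empty vector. The 8 genes were taken by symbol from 26364 genes in the count files: the fatty acid binding proteins FABP3, FABP4, FABP5 and FABP6, the fatty acid transporter CD36, the nuclear receptor PPARG, the lipase LPL and the lipoprotein receptor VLDLR. They were chosen by function, and the set was selected on the measured fold changes of FABP4, whose RNA was higher in one MEL-18 line and lower in the other. The FABP4 values are therefore given as a description with no test.

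Each of 9 libraries came from cells infected with a pLVX lentivirus and kept in serum-containing DMEM for 48 h. MEL-18 T334A cells carried pLVX-MEL-18 T334A, in which alanine replaces a threonine that is phosphorylated in the wild type, MEL-18 WT cells carried the wild-type protein, and vector cells carried pLVX alone, with 3 libraries described as biological replicates in each of the 3 groups. MEL-18, the product of PCGF2, is a RING finger protein of Polycomb repressive complex 1. The labels do not say whether a line was a clone or a pool, or whether replicates were transduced separately. The p-values therefore rest on the variation among cultures of each line, and an effect of a construct cannot be told apart from one of its transduced line.

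PCGF2 averaged 1419.8 ± 30.9 CPM, the counts scaled by library size, in MEL-18 T334A cells, 1286 ± 6.55 CPM in MEL-18 WT cells and 22.7 ± 0.878 CPM in vector cells (SD, n = 3 each), so it was raised in both groups labelled MEL-18. Counts per gene do not show which of them carried the T334A change. Libraries held 31643722 to 37005302 counts. At least 1 count was found for 18956 to 19636 genes in 8 libraries and for 20323 genes in MEL-18 T334A replicate 1. The line's markers VIM, CD44, AXL, CAV1, EGFR, SPARC and LOX were all expressed, while ESR1, PGR, CDH1 and KRT5 stayed below 0.28 CPM in every library. ERBB2, at 62.8 to 70.5 CPM, and EPCAM, at 7.20 to 12.6 CPM, were present. Of the cell types known for FABP4 and CD36, adipocyte markers (6 genes, ADIPOQ at 0 throughout) summed to 0.509 to 0.733 CPM in MEL-18 T334A, 0.516 to 0.752 CPM in MEL-18 WT and 0.427 to 0.833 CPM in vector libraries. Endothelial markers (10 genes) summed to 67.7 to 73.1, 58.5 to 61.0 and 66.0 to 69.0 CPM in the same order, nearly all of it ESAM and ROBO4. The other endothelial genes were low and went both ways: PECAM1 and CDH5 averaged 0.330 and 0.204 CPM in MEL-18 T334A, 0.474 and 0.605 CPM in MEL-18 WT, against 0.951 and 0.948 CPM in vector cells, while KDR, TEK and TIE1 averaged 1.68, 0.199 and 0.126 CPM in MEL-18 T334A, 1.11, 0.131 and 0.130 CPM in MEL-18 WT, against 1.01, 0.152 and 0.0607 CPM in vector cells. Macrophage markers (12 genes, C1QA at 0 throughout) summed to 50.3 to 54.9, 53.9 to 58.7 and 54.8 to 56.9 CPM, nearly all of it CD68. In the same order of groups PTPRC averaged 0.355, 0.309 and 0.635 CPM, CD14 0.602, 0.602 and 0.471 CPM, and ITGAM 0.158, 0.0671 and 0.0914 CPM. The part of these markers in the values that follow was not tested.

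Fatty acids reach a cell either free or released from lipoproteins. LPL, the lipase on the vessel wall, frees them from triglyceride-rich particles, VLDLR binds such particles, CD36 takes long-chain fatty acids across the plasma membrane, and the small cytosolic FABP proteins carry them onward. PPAR gamma, encoded by PPARG, is a nuclear receptor that binds DNA with RXR at paired AGGTCA motifs and drives fat cell differentiation. FABP4, CD36 and LPL are textbook targets of PPAR gamma in fat cells. FABP4 is known chiefly from adipocytes, macrophages and endothelial cells, FABP5 from epidermis and many carcinomas, FABP3 from heart muscle and FABP6 from the ileum, where it binds bile acids.

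The start regions of the 4 genes that later moved in pairs, CD36 and PPARG on one hand and FABP6 and VLDLR on the other, are shown because the AGGTCA motif is the core of the PPAR gamma binding element. Each is the RefSeq window of GRCh38.p14 (250 bases before to 50 after an annotated start, the window listed first for the gene), written 5′ to 3′, with AGGTCA or its complement TGACCT in capitals. The windows are chr7:80601957-80602256 for CD36, chr3:12287118-12287417 for PPARG, chr5:160229256-160229555 for FABP6 and chr9:2621537-2621836 for VLDLR, all on the plus strand.
CD36: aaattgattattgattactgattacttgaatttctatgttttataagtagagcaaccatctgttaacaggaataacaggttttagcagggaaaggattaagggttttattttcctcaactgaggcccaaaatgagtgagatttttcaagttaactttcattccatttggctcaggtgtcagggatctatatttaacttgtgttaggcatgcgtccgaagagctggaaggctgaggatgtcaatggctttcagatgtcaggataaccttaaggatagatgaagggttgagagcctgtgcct
PPARG: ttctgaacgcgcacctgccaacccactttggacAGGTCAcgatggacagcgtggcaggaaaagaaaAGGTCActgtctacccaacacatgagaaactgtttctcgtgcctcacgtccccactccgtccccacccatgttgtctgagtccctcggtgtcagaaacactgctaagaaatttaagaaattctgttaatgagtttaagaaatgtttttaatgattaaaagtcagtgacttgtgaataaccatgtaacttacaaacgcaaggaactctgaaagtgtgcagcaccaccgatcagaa
FABP6: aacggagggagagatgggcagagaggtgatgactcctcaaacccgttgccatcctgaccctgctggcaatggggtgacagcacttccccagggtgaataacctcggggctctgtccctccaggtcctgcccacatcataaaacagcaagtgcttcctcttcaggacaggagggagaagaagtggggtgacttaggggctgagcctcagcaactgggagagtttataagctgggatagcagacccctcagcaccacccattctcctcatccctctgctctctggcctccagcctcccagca
VLDLR: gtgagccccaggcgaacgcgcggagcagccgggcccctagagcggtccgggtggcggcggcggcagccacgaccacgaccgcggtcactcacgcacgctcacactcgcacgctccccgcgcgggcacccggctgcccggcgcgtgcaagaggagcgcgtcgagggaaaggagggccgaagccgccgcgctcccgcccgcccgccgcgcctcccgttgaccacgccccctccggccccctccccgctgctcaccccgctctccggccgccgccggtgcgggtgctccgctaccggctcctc
The PPARG window held 2 copies of AGGTCA, and the other windows shown held none. RefSeq windows were matched for 5 of the 8 genes, 15 windows in all. AGGTCA on either strand was in 3 of the 6 PPARG windows, in 0 of the 6 CD36 windows and in 0 of the single windows of FABP3, FABP6 and VLDLR. The spaced repeat AGGTCANAGGTCA, which contains the shorter motif, was in 0 of the 15. Among 34943 windows of this length, 13.8% held AGGTCA and 0.0229% held the repeat. A match is only a match of letters in these windows, and no binding was measured.

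FABP4, the adipocyte-type fatty acid carrier, was low but measurable in all 9 libraries. It stood at 9.43, 9.76 and 7.50 CPM in MEL-18 T334A replicates 1 to 3, at 0.727, 0.407 and 0.512 CPM in MEL-18 WT and at 2.90, 2.91 and 3.06 CPM in vector cells. The 3 groups did not overlap, with every MEL-18 T334A library above and every MEL-18 WT library below the vector libraries. This separation lies in the values that chose the set. Of all tested genes, 51.5% were without overlap in MEL-18 T334A against vector, 42.7% in MEL-18 WT against vector and 48.7% between the MEL-18 lines. The counts behind these values were 304, 345 and 266 in MEL-18 T334A, 26, 15 and 17 in MEL-18 WT, and 95, 98 and 96 in vector cells. The fitted log2 fold change was 1.59 ± 0.11 (SE) for MEL-18 T334A over vector, a ratio of summed counts of 3.00 (exact 95% interval 2.63 to 3.44, counting error only). It was -2.42 ± 0.20 for MEL-18 WT over vector, where vector cells held 5.39 times the MEL-18 WT level (interval 4.05 to 7.28), and 4.01 ± 0.16 for MEL-18 T334A over MEL-18 WT, a ratio of 16.2 (interval 12.4 to 21.5). In the order of log2 fold changes over 14738 tested genes, FABP4 was number 107 from the top for MEL-18 T334A over vector, number 15 from the bottom for MEL-18 WT over vector and number 9 from the top between the MEL-18 lines. Comparisons with the vector share its 3 libraries. In bulk RNA such as this, fewer FABP4-expressing cells and less FABP4 RNA per cell cannot be told apart.

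**Figure D1:**
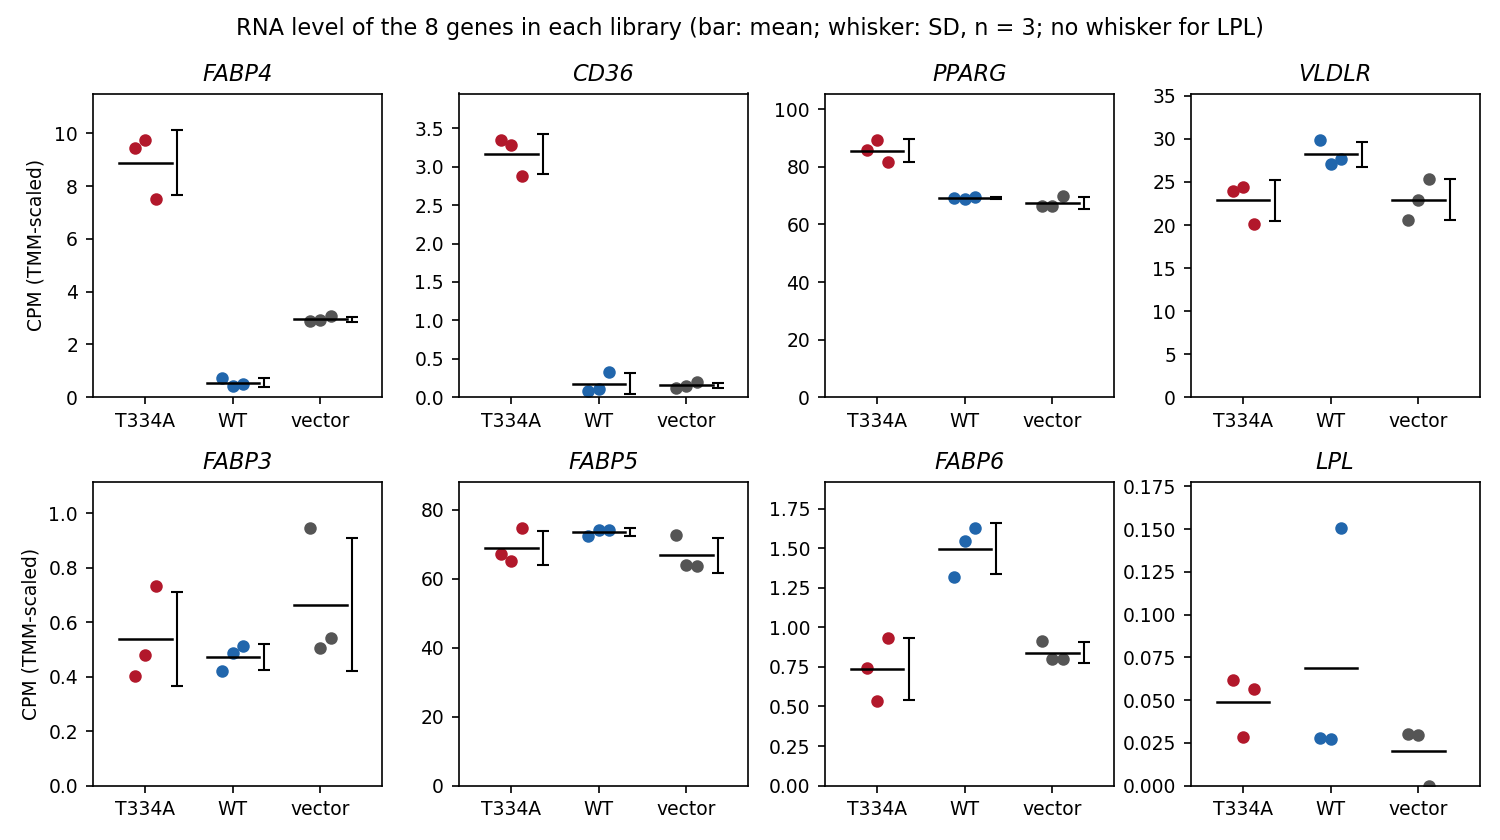
RNA level (CPM over TMM-scaled library sizes, linear axes from 0) of the 8 genes in MEL-18 T334A, MEL-18 WT and vector cells; points are libraries, bars group means and whiskers SD (n = 3, none drawn for LPL). FABP4 separates into 3 levels, CD36 is above 2.8 CPM in MEL-18 T334A libraries alone, FABP6 and VLDLR are highest in MEL-18 WT, and LPL stays below 0.16 CPM throughout.

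CD36, the membrane transporter of long-chain fatty acids, was near 0 in all libraries but those of MEL-18 T334A. It stood at 3.35, 3.28 and 2.88 CPM in MEL-18 T334A, at 0.0839, 0.109 and 0.331 CPM in MEL-18 WT and at 0.122, 0.149 and 0.191 CPM in vector cells. The MEL-18 T334A libraries lay far above all others, and the MEL-18 WT and vector libraries overlapped. CD36 rose by 4.33 ± 0.26 on the log2 scale in MEL-18 T334A over vector (adjusted p = 3.73e-13, edgeR quasi-likelihood test, two-sided, with Benjamini-Hochberg adjustment over all tested genes, as for every adjusted p below). The summed counts were 326 in MEL-18 T334A and 15 in vector cells, a ratio of 20.6 (exact 95% interval 12.3 to 37.3). Only 12 tested genes had a more positive log2 fold change in this comparison. MEL-18 T334A exceeded MEL-18 WT by 4.19 ± 0.25 (adjusted p = 4.64e-13), on 326 against 18 counts. Between MEL-18 WT and vector the change was 0.15 ± 0.52 (edgeR adjusted p = 0.874), and the ratio of 18 to 15 counts was 1.11, with an interval of 0.528 to 2.36, so that a change within that interval was not detectable at this depth. CD36 passed the count filter through its MEL-18 T334A libraries alone, so it had to differ to be among the tested genes, and its call is no support for the set. Like FABP4 it was highest in the 3 MEL-18 T334A libraries, while its MEL-18 WT libraries were not separate from those of the vector.

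PPARG, the nuclear receptor, was well expressed in all groups and modestly higher in MEL-18 T334A. It stood at 85.9, 89.4 and 81.6 CPM in MEL-18 T334A, at 69.1, 68.9 and 69.6 CPM in MEL-18 WT and at 66.3, 66.5 and 69.9 CPM in vector cells. All 3 MEL-18 T334A libraries were above the other 6, which overlapped. PPARG rose by 0.34 ± 0.04 in MEL-18 T334A over vector (edgeR adjusted p = 1.11e-08), a 1.27-fold change, and by 0.31 ± 0.04 over MEL-18 WT (adjusted p = 8.88e-08). For MEL-18 WT over vector the log2 fold change was 0.04 ± 0.04 (adjusted p = 0.517). Neither rise was called against a minimum change of 1.5-fold.

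VLDLR, which binds triglyceride-rich lipoproteins, was highest in MEL-18 WT. It stood at 24.0, 24.5 and 20.1 CPM in MEL-18 T334A, at 29.9, 27.1 and 27.7 CPM in MEL-18 WT and at 20.6, 23.0 and 25.3 CPM in vector cells. Each MEL-18 WT library exceeded the other 6, and MEL-18 T334A and vector libraries overlapped. VLDLR rose by 0.30 ± 0.07 in MEL-18 WT over vector (edgeR adjusted p = 0.000868) and fell by 0.31 ± 0.06 in MEL-18 T334A relative to MEL-18 WT (adjusted p = 0.000447). For MEL-18 T334A over vector the value was -0.01 ± 0.07 (adjusted p = 0.955), and its sign depended on the scaling. The median log2 fold change of the 25 nearest tested genes on chromosome 9 was 0.13 for MEL-18 WT over vector (10 called higher, 0 lower). It was -0.37 for MEL-18 T334A over MEL-18 WT (0 higher, 18 lower) and -0.20 for MEL-18 T334A over vector (2 higher, 11 lower). In the same order, 14.4%, 21% and 23.4% of all tested genes were called higher and 14.4%, 20% and 22.5% lower. The antisense gene VLDLR-AS1 averaged 0.479 CPM in MEL-18 T334A, 0.575 CPM in MEL-18 WT, against 0.274 CPM in vector cells. The strand setting of the counting is not given, so reads of VLDLR and VLDLR-AS1 may be mixed.

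LPL, the lipase that releases fatty acids from lipoproteins, was at the edge of detection. It had 2, 1 and 2 counts in MEL-18 T334A, 1, 1 and 5 counts in MEL-18 WT, and 1, 1 and 0 counts in vector cells. No group stood apart, LPL did not pass the count filter, and no difference was detectable at this depth. The ratio of 5 MEL-18 T334A to 2 vector counts was 2.37, with an exact 95% interval of 0.388 to 24.9.

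Of the 3 other FABP genes, none was called higher in MEL-18 T334A or lower in MEL-18 WT than in vector cells with all libraries in the fit. FABP5, the epidermal-type carrier, stood at 67.2, 65.2 and 74.6 CPM in MEL-18 T334A, at 72.2, 74.1 and 74.1 CPM in MEL-18 WT and at 72.6, 64.0 and 63.7 CPM in vector cells. The groups overlapped in all 3 comparisons. FABP5 rose by 0.14 ± 0.05 in MEL-18 WT over vector (edgeR adjusted p = 0.0235). That call was lost when vector replicate 2 or 3 or MEL-18 WT replicate 2 or 3 was left out, with adjusted p-values of 0.131, 0.118, 0.0687 and 0.0703. The value was 0.05 ± 0.05 for MEL-18 T334A over vector (adjusted p = 0.427) and -0.09 ± 0.05 for MEL-18 T334A over MEL-18 WT (adjusted p = 0.113). Both were called when 1 library was left out, at 0.12 over vector without vector replicate 1 (adjusted p = 0.0444) and at -0.15 between the MEL-18 lines without MEL-18 T334A replicate 3 (adjusted p = 0.00245). FABP5 has many near-identical processed pseudogenes, and the handling of reads mapping to several places is not given, so its counts are uncertain.

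FABP6, the ileal bile acid carrier, was low in all libraries and highest in MEL-18 WT. It stood at 0.745, 0.537 and 0.930 CPM in MEL-18 T334A, at 1.31, 1.55 and 1.62 CPM in MEL-18 WT and at 0.915, 0.803 and 0.797 CPM in vector cells. Every MEL-18 WT library was above the other 6, and MEL-18 T334A and vector libraries overlapped. On 158 MEL-18 WT and 82 vector counts, FABP6 rose by 0.83 ± 0.20 in MEL-18 WT over vector (edgeR adjusted p = 0.00196), a count ratio of 1.78 (exact 95% interval 1.36 to 2.35). It fell by 1.01 ± 0.20 in MEL-18 T334A relative to MEL-18 WT (adjusted p = 0.000198), and the MEL-18 T334A to vector value was -0.18 ± 0.23 (adjusted p = 0.546). Reads of antisense or overlapping genes may be part of these counts.

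FABP3, the heart-type carrier, stood at 0.403, 0.481 and 0.733 CPM in MEL-18 T334A, at 0.419, 0.489 and 0.512 CPM in MEL-18 WT and at 0.945, 0.506 and 0.542 CPM in vector cells. The groups overlapped in all 3 comparisons. The log2 fold changes were -0.29 ± 0.29, -0.49 ± 0.29 and 0.20 ± 0.30 for MEL-18 T334A over vector, MEL-18 WT over vector and MEL-18 T334A over MEL-18 WT (edgeR adjusted p = 0.432, 0.230 and 0.638). At 13 to 31 counts per library, changes of this size were not resolved.

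**Figure D2:**
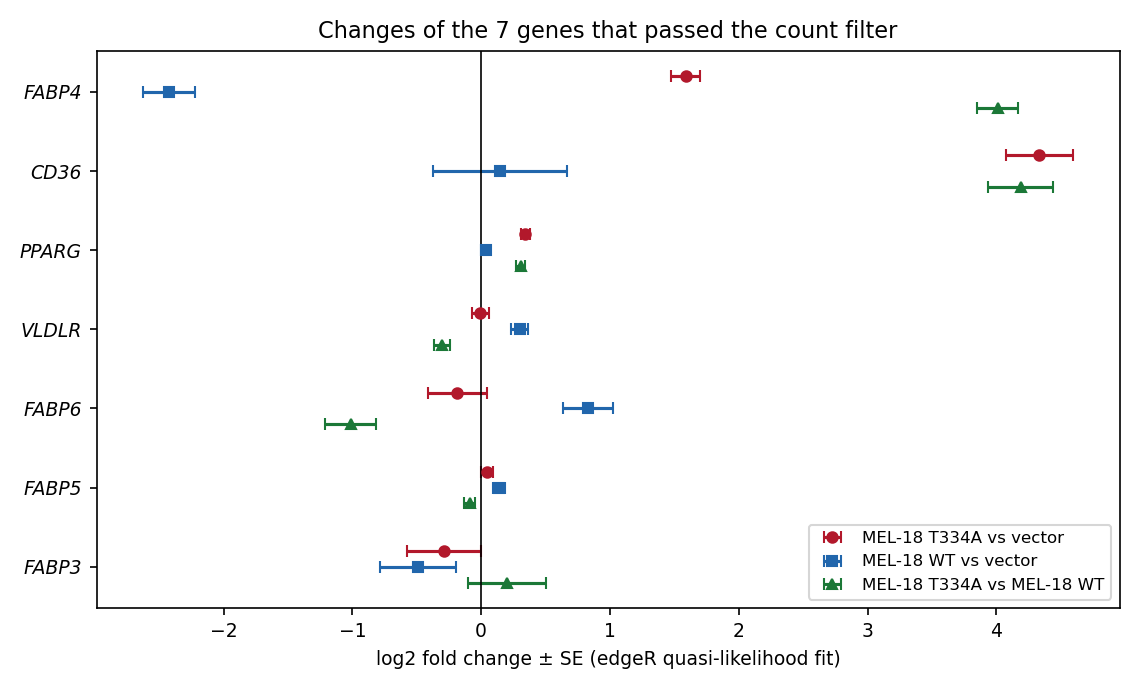
Log2 fold changes (points) with SE (bars) from the edgeR fit for the 7 genes that passed the count filter, in MEL-18 T334A vs vector, MEL-18 WT vs vector and MEL-18 T334A vs MEL-18 WT. FABP4 lies at 1.59 and -2.42 against vector, CD36 at 4.33 and 0.15, while VLDLR and FABP6 lie to the right of 0 in MEL-18 WT vs vector alone and to the left in MEL-18 T334A vs MEL-18 WT.

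Leaving FABP4 aside, 6 of the 8 genes could be tested, and the calls must be read against a background in which much of the transcriptome was called. In MEL-18 T334A against vector, 2 of the 6 were called, CD36 and PPARG, both higher, where 45.9% of all tested genes were called, 23.4% higher and 22.5% lower. The replicates of these groups did not overlap for the same 2 genes, and for 51.5% of all tested genes. In MEL-18 WT against vector, 3 were called, FABP5, FABP6 and VLDLR, all higher, with a background of 28.8%, made of 14.4% higher and 14.4% lower. FABP6 and VLDLR were without overlap, as were 42.7% of tested genes. Between MEL-18 T334A and MEL-18 WT, 4 were called, CD36 and PPARG higher and FABP6 and VLDLR lower, with a background of 40.9%, made of 21% higher and 20% lower. The same 4 were without overlap, as were 48.7% of tested genes. These shares are on so few genes, CD36 being admitted through its high group, that nothing about the set follows from them. A called change of more than 2-fold was rarer, at 2.71% of tested genes for MEL-18 T334A over vector, where CD36 passed it, and at 1.76% for MEL-18 WT over vector, where none of the 6 did. It was met by 1.68% of tested genes between the MEL-18 lines, where CD36 and FABP6 passed it.

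FABP4 lies on chromosome 8 in a row of FABP genes beside FABP5, PMP2, FABP9 and FABP12, so the behaviour of that stretch was examined. The 20 tested genes on each side of FABP4 in RefSeq order had a median log2 fold change of 0.12 for MEL-18 T334A over vector (17 of 40 higher, 5 lower), 0.06 for MEL-18 WT over vector (9 higher, 2 lower) and 0.02 between the MEL-18 lines (9 higher, 6 lower). Of all tested genes 23.4%, 14.4% and 21% were called higher and 22.5%, 14.4% and 20% lower in these comparisons. The FABP4 values that chose the set were 1.59, -2.42 and 4.01 in the same order. IMPA1, an inositol monophosphatase gene close by, stood at 74.8 ± 1.85 CPM in MEL-18 T334A, 70.9 ± 2.36 CPM in MEL-18 WT, against 71.4 ± 3.64 CPM in vector cells and was called in none of the 3 comparisons (edgeR adjusted p = 0.143, 0.891 and 0.0992). On the listed stretch 8 of 11 genes were tested, and 4 rose and 0 fell in MEL-18 T334A over vector, 1 rose and 0 fell in MEL-18 WT over vector, and 2 rose and 0 fell in MEL-18 T334A over MEL-18 WT (called shares 50%, 12.5% and 25%). With library totals the calls were 7 for MEL-18 T334A over vector and 4 between the lines, where leaving out libraries gave 0 without MEL-18 WT replicate 2 and 1 without MEL-18 WT replicate 1 or MEL-18 T334A replicate 1. ZNF704, a zinc finger gene, rose in both MEL-18 lines over vector, by 0.37 ± 0.05 in MEL-18 T334A and 0.41 ± 0.05 in MEL-18 WT (edgeR adjusted p = 9.57e-07 and 4.87e-07). CHMP4C, a component of the ESCRT membrane-cutting machinery, rose by 0.46 ± 0.09 in MEL-18 T334A over vector (adjusted p = 0.000109), and PAG1, a membrane adaptor of Src-family kinases, by 0.17 ± 0.05 (adjusted p = 0.00366). Chosen after its values were seen, CA2, the carbonic anhydrase gene at place 10 beyond FABP4, is given as a description. It averaged 5.01 ± 0.485 CPM in MEL-18 T334A, 4.31 ± 0.410 CPM in MEL-18 WT, against 1.83 ± 0.185 CPM in vector cells. Its log2 fold changes over vector were 1.45 ± 0.13 in MEL-18 T334A and 1.24 ± 0.13 in MEL-18 WT. ZFHX4-AS1, an antisense gene also chosen after its values were seen, averaged 0.00943 CPM in MEL-18 T334A, was at 0 in MEL-18 WT and averaged 1.02 ± 0.202 CPM in vector cells.

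Around CD36 on chromosome 7, the 40 neighbours had medians of 0.02 for MEL-18 T334A over vector (13 higher, 7 lower), -0.15 for MEL-18 WT over vector (2 higher, 19 lower) and 0.21 between the MEL-18 lines (27 higher, 2 lower). CD36 itself stood at 4.33, 0.15 and 4.19. The shares of all tested genes called higher were 23.4%, 14.4% and 21%, and those called lower 22.5%, 14.4% and 20%. For PPARG on chromosome 3 the medians were 0.10, 0.06 and 0.02 in the same order of comparisons, against its own 0.34, 0.04 and 0.31. Of its 40 neighbours 16, 11 and 8 were called higher and 3, 2 and 4 lower. The neighbours of FABP6 had medians of -0.05, -0.00 and -0.07, against its own -0.18, 0.83 and -1.01 (6, 6 and 5 higher, 15, 3 and 13 lower). Those of FABP5 had 0.14, 0.06 and 0.04, against its own 0.05, 0.14 and -0.09 (19, 9 and 10 higher, 4, 3 and 5 lower). Those of FABP3 had 0.02, 0.03 and 0.00, against its own -0.29, -0.49 and 0.20 (12, 9 and 5 higher, 6, 0 and 8 lower). Around LPL, which itself could not be tested, the 40 neighbours on chromosome 8 had medians of 0.13 for MEL-18 T334A over vector (23 higher, 2 lower), -0.17 for MEL-18 WT over vector (4 higher, 22 lower) and 0.30 between the MEL-18 lines (36 higher, 1 lower).

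**Figure D3:**
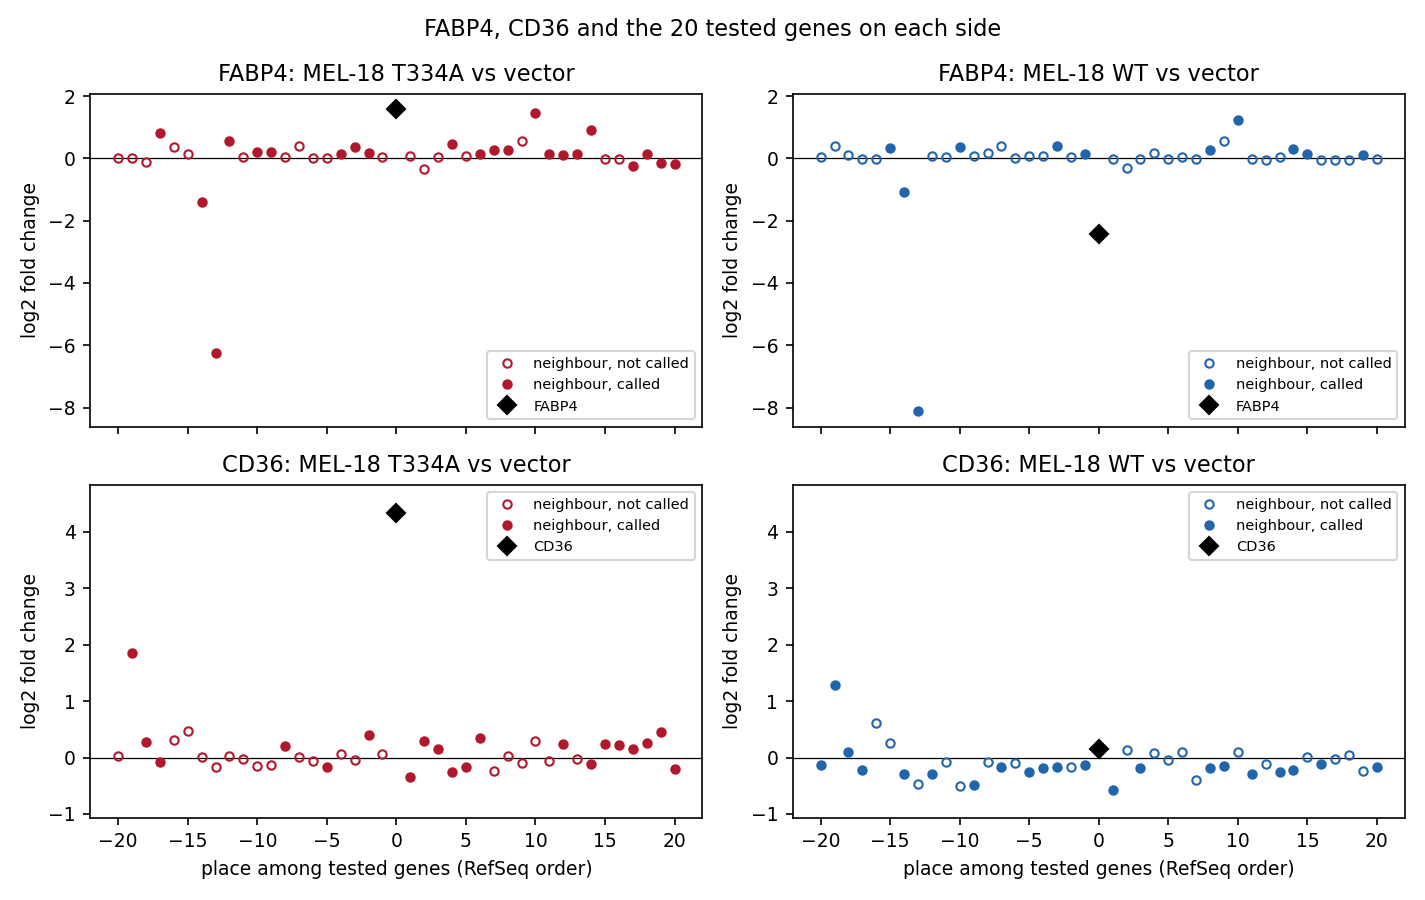
Log2 fold change of FABP4 (upper row) and CD36 (lower row), drawn as diamonds, and of the 20 tested genes on each side by place in RefSeq order, for MEL-18 T334A vs vector (left) and MEL-18 WT vs vector (right); filled circles are called genes. The neighbour medians are 0.12 and 0.06 around FABP4 and 0.02 and -0.15 around CD36; the point near the bottom of the upper panels is ZFHX4-AS1, a gene of few counts whose fitted value depends on the prior count.

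Genes on lists of lipid handling and on the listed stretch around FABP4, 166 further genes in all, were then counted together, and 127 were tested. The stretch gave 8 of the tested genes, taken by position. Of these, 4 rose in MEL-18 T334A over vector, 1 in MEL-18 WT over vector and 2 between the MEL-18 lines, and 0 fell. In MEL-18 T334A over vector 40 rose and 23 fell (49.6% of those tested, against 45.9% of all tested genes), with a median log2 fold change of 0.07. In MEL-18 WT over vector 23 rose and 15 fell (29.9%, against 28.8%), with a median of 0.01, and in MEL-18 T334A over MEL-18 WT 34 rose and 29 fell (49.6%, against 40.9%), with a median of 0.02. The medians over all tested genes were -0.00 in each comparison. The called shares were not tested against the background, here or in the single lists below. Those of the single lists are in the same order of comparisons, to be read beside 45.9%, 28.8% and 40.9% of all tested genes. When library totals replaced TMM, 79 of the listed genes and 6605 of all genes were called in MEL-18 T334A against vector.

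Among the other carriers of the FABP family and its retinoid-binding relatives, 2 of 12 genes were tested. CRABP2, which carries retinoic acid to its nuclear receptor, rose in both lines: it averaged 46.6 ± 1.93 CPM in MEL-18 T334A, 36.3 ± 1.43 CPM in MEL-18 WT, against 16.7 ± 0.855 CPM in vector cells. Its log2 fold changes were 1.48 ± 0.05, 1.12 ± 0.05 and 0.36 ± 0.04 for MEL-18 T334A over vector, MEL-18 WT over vector and MEL-18 T334A over MEL-18 WT (edgeR adjusted p = 6.89e-19, 1.25e-15 and 1.20e-07). RBP5, a retinol carrier, was called in none of the 3 comparisons (adjusted p = 0.0888, 0.190 and 0.832). Without MEL-18 T334A replicate 1, 2 genes of the list were called against vector in place of 1. Of the genes of fatty acid transport and activation, 16 of 19 were tested, and 5 rose and 6 fell in MEL-18 T334A over vector, 3 rose and 3 fell in MEL-18 WT over vector, and 5 rose and 7 fell between the MEL-18 lines (medians 0.05, -0.00 and -0.09, called shares 68.75%, 37.5% and 75%). SLC27A2, a very long-chain acyl-CoA synthetase and transporter, was highest in MEL-18 WT, at 2.39 ± 0.272 CPM in MEL-18 T334A, 4.16 ± 0.377 CPM in MEL-18 WT, against 2.11 ± 0.360 CPM in vector cells. It rose by 0.99 ± 0.13 in MEL-18 WT over vector (adjusted p = 1.70e-06) and fell by 0.81 ± 0.13 in MEL-18 T334A relative to MEL-18 WT (adjusted p = 1.17e-05). ACSL5, an acyl-CoA synthetase, rose by 0.47 ± 0.04 in MEL-18 T334A over vector (adjusted p = 5.36e-11), and CAV2, a caveolar coat gene, by 0.33 ± 0.03 (adjusted p = 4.59e-09). CAV1, its partner in caveolae, fell by 0.26 ± 0.03 in MEL-18 WT relative to vector (adjusted p = 4.02e-08), and MFSD2A, a transporter of lysophosphatidylcholine, rose by 0.31 ± 0.05 (adjusted p = 3.11e-05).

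Of the lipoprotein receptors, 13 of 16 genes were tested. In MEL-18 T334A over vector 0 rose and 1 fell, in MEL-18 WT over vector 4 rose and 0 fell, and in MEL-18 T334A over MEL-18 WT 0 rose and 6 fell (medians 0.06, 0.06 and -0.11, called shares 7.69%, 30.8% and 46.2%). The called gene between MEL-18 T334A and vector became 5 genes without MEL-18 T334A replicate 3, 3 without vector replicate 2, 2 without vector replicate 3 or MEL-18 T334A replicate 1, and 4 with library totals in place of TMM. Besides VLDLR, LRP2, the large endocytic receptor megalin, was highest in MEL-18 WT, at 0.892 ± 0.524 CPM in MEL-18 T334A, 1.60 ± 0.0710 CPM in MEL-18 WT, against 0.634 ± 0.102 CPM in vector cells. It rose by 1.33 ± 0.26 in MEL-18 WT over vector (edgeR adjusted p = 0.000261) and fell by 0.87 ± 0.24 in MEL-18 T334A relative to MEL-18 WT (adjusted p = 0.00463). The value between the MEL-18 lines was -1.42 without MEL-18 T334A replicate 1 and -0.58 without MEL-18 T334A replicate 3. LSR, the lipolysis-stimulated receptor, rose by 0.29 ± 0.04 and SORL1, a sorting receptor, by 0.24 ± 0.06 in MEL-18 WT over vector (adjusted p = 5.05e-06 and 0.00338), and both were lower in MEL-18 T334A than in MEL-18 WT, by 0.21 ± 0.04 and 0.37 ± 0.06 (adjusted p = 0.000161 and 1.74e-05).

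Of the lipases and their regulators, 12 of 18 were tested, and 5 rose and 4 fell in MEL-18 T334A over vector, 1 rose and 0 fell in MEL-18 WT over vector, and 5 rose and 3 fell between the MEL-18 lines (medians 0.06, 0.08 and 0.01, called shares 75%, 8.33% and 66.7%). The single call in MEL-18 WT over vector became 2 without vector replicate 1 or MEL-18 T334A replicate 2 or 3. G0S2, an inhibitor of the triglyceride lipase ATGL, rose in both lines, at 149 ± 4.06 CPM in MEL-18 T334A, 121 ± 1.49 CPM in MEL-18 WT, against 82.3 ± 1.49 CPM in vector cells (log2 fold changes 0.86 ± 0.03 and 0.56 ± 0.03 over vector, edgeR adjusted p = 5.91e-18 and 1.71e-13). LIPG, endothelial lipase, rose in MEL-18 T334A by 0.41 ± 0.05 over vector and by 0.37 ± 0.04 over MEL-18 WT (adjusted p = 3.07e-08 and 2.88e-07). ANGPTL4, an inhibitor of LPL and a well-known PPAR target, fell in MEL-18 T334A: it averaged 9.65 ± 0.198 CPM in MEL-18 T334A, 12.1 ± 0.717 CPM in MEL-18 WT, against 12.8 ± 0.715 CPM in vector cells. Its fall was 0.40 ± 0.07 relative to vector and 0.32 ± 0.07 relative to MEL-18 WT (adjusted p = 1.85e-05 and 0.000399).

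Of the partners and cofactors of PPAR gamma, 15 of 16 were tested, and 4 rose and 2 fell in MEL-18 T334A over vector, 2 rose and 1 fell in MEL-18 WT over vector, and 6 rose and 4 fell between the MEL-18 lines (medians 0.05, 0.01 and 0.07, called shares 40%, 20% and 66.7%). With library totals in place of TMM, 10 were called in MEL-18 T334A against vector. RXRA, the DNA-binding partner of PPAR gamma, moved in opposite directions in the MEL-18 lines. It averaged 74.0 ± 2.17 CPM in MEL-18 T334A, 58.3 ± 0.536 CPM in MEL-18 WT, against 67.3 ± 1.03 CPM in vector cells, with log2 fold changes of 0.14 ± 0.03 and -0.21 ± 0.03 over vector (edgeR adjusted p = 0.00113 and 2.62e-05) and 0.34 ± 0.03 between the lines (adjusted p = 4.64e-09). PPARD, a related receptor, rose by 0.14 ± 0.03 in MEL-18 T334A over vector (adjusted p = 0.00119), and PPARGC1B, a coactivator, by 0.26 ± 0.04 in MEL-18 WT over vector (adjusted p = 5.61e-05). PRDM16, a brown fat regulator chosen after its values were seen, averaged 0.832 ± 0.112 CPM in MEL-18 T334A, 0.356 ± 0.105 CPM in MEL-18 WT, against 0.151 ± 0.128 CPM in vector cells. Its log2 fold change for MEL-18 T334A over vector, given as a description, was 2.42 ± 0.37, and 3.36 without vector replicate 2.

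Of 25 known PPAR target genes outside the 8, 16 were tested. In MEL-18 T334A over vector 4 rose and 3 fell, in MEL-18 WT over vector 2 rose and 3 fell, and between the MEL-18 lines 2 rose and 4 fell (medians -0.01, 0.04 and -0.04, called shares 43.75%, 31.25% and 37.5%). The targets AQP3, a water and glycerol channel, and UCP2, a mitochondrial carrier, fell in both lines relative to vector, AQP3 by 0.48 ± 0.06 in MEL-18 T334A and 0.35 ± 0.06 in MEL-18 WT and UCP2 by 0.38 ± 0.04 and 0.27 ± 0.04 (edgeR adjusted p = 6.41e-07, 8.94e-05, 2.60e-08 and 8.38e-06). CPT1A, an oxidation enzyme that is also on this list, rose in both lines over vector, by 0.26 ± 0.04 and 0.27 ± 0.04 (edgeR adjusted p = 2.02e-06 and 1.65e-06). PDK4, a kinase that restrains glucose oxidation, averaged 6.42 CPM in MEL-18 T334A, 4.79 CPM in MEL-18 WT, against 6.03 CPM in vector cells. It was higher in MEL-18 T334A than in MEL-18 WT by 0.42 ± 0.11 (adjusted p = 0.00365). In MEL-18 WT it was lower than in vector cells by 0.33 ± 0.11 (edgeR adjusted p = 0.0292), a call lost under 6 of 18 alternatives. The adipocyte targets ADIPOQ, CIDEC and CIDEA, at 0 to 11 counts over the 9 libraries, could not be tested. The called targets thus went both ways in each comparison.

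Of the transcription factors of fat cell differentiation, 14 of 19 were tested, and 4 rose and 3 fell in MEL-18 T334A over vector, 3 rose and 3 fell in MEL-18 WT over vector, and 2 rose and 3 fell between the lines (medians 0.00, 0.03 and -0.02, called shares 50%, 42.9% and 35.7%). CEBPA, which acts with PPAR gamma in adipocytes, rose in both lines, at 7.75 ± 0.335 CPM in MEL-18 T334A, 7.88 ± 0.575 CPM in MEL-18 WT, against 4.23 ± 0.118 CPM in vector cells (log2 fold changes 0.87 ± 0.09 and 0.90 ± 0.09, edgeR adjusted p = 7.62e-09 and 8.47e-09). STAT5A, a signal-dependent factor, rose by 0.83 ± 0.08 and 0.66 ± 0.08 in the same comparisons (adjusted p = 1.72e-09 and 2.95e-07). ZNF467, a zinc finger gene, rose in MEL-18 T334A by 1.40 ± 0.17 over vector and 1.04 ± 0.16 over MEL-18 WT (adjusted p = 2.44e-07 and 9.62e-06), and KLF4 fell by 0.30 ± 0.04 in MEL-18 WT relative to vector (adjusted p = 4.35e-06).

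Of the genes of triglyceride synthesis and lipid droplets, 14 of 19 were tested, and 6 rose and 0 fell in MEL-18 T334A over vector, 3 rose and 2 fell in MEL-18 WT over vector, and 6 rose and 1 fell between the lines (medians 0.20, 0.07 and 0.09, called shares 42.9%, 35.7% and 50%). Without MEL-18 T334A replicate 2, 4 were called between the lines. DGAT2, which makes the last step of triglyceride synthesis, averaged 12.9 ± 0.839 CPM in MEL-18 T334A, 10.9 ± 0.602 CPM in MEL-18 WT, against 4.10 ± 0.533 CPM in vector cells, with log2 fold changes of 1.66 ± 0.09 and 1.41 ± 0.09 over vector (edgeR adjusted p = 2.19e-14 and 2.28e-12). GPAM and AGPAT2, acyltransferases of the same pathway, rose by 0.34 ± 0.05 and 0.33 ± 0.04 in MEL-18 T334A over vector (adjusted p = 9.88e-07 and 7.32e-08). LPIN2, a phosphatidate phosphatase, fell by 0.28 ± 0.04 in MEL-18 WT relative to vector (adjusted p = 5.77e-06). All 22 genes of fatty acid oxidation in the list were tested, and 8 rose and 5 fell in MEL-18 T334A over vector, 4 rose and 3 fell in MEL-18 WT over vector, and 5 rose and 3 fell between the lines (medians 0.07, 0.00 and -0.01, called shares 59.1%, 31.8% and 36.4%). The 7 calls of MEL-18 WT against vector became 4 without MEL-18 WT replicate 3. CPT1A, the entry enzyme of mitochondrial oxidation, rose by 0.26 ± 0.04 in MEL-18 T334A and 0.27 ± 0.04 in MEL-18 WT over vector (adjusted p = 2.02e-06 and 1.65e-06). ACAA2, the final thiolase, was higher in MEL-18 T334A by 0.27 ± 0.04 over vector and 0.37 ± 0.04 over MEL-18 WT (adjusted p = 1.66e-06 and 1.64e-08).

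**Figure D4:**
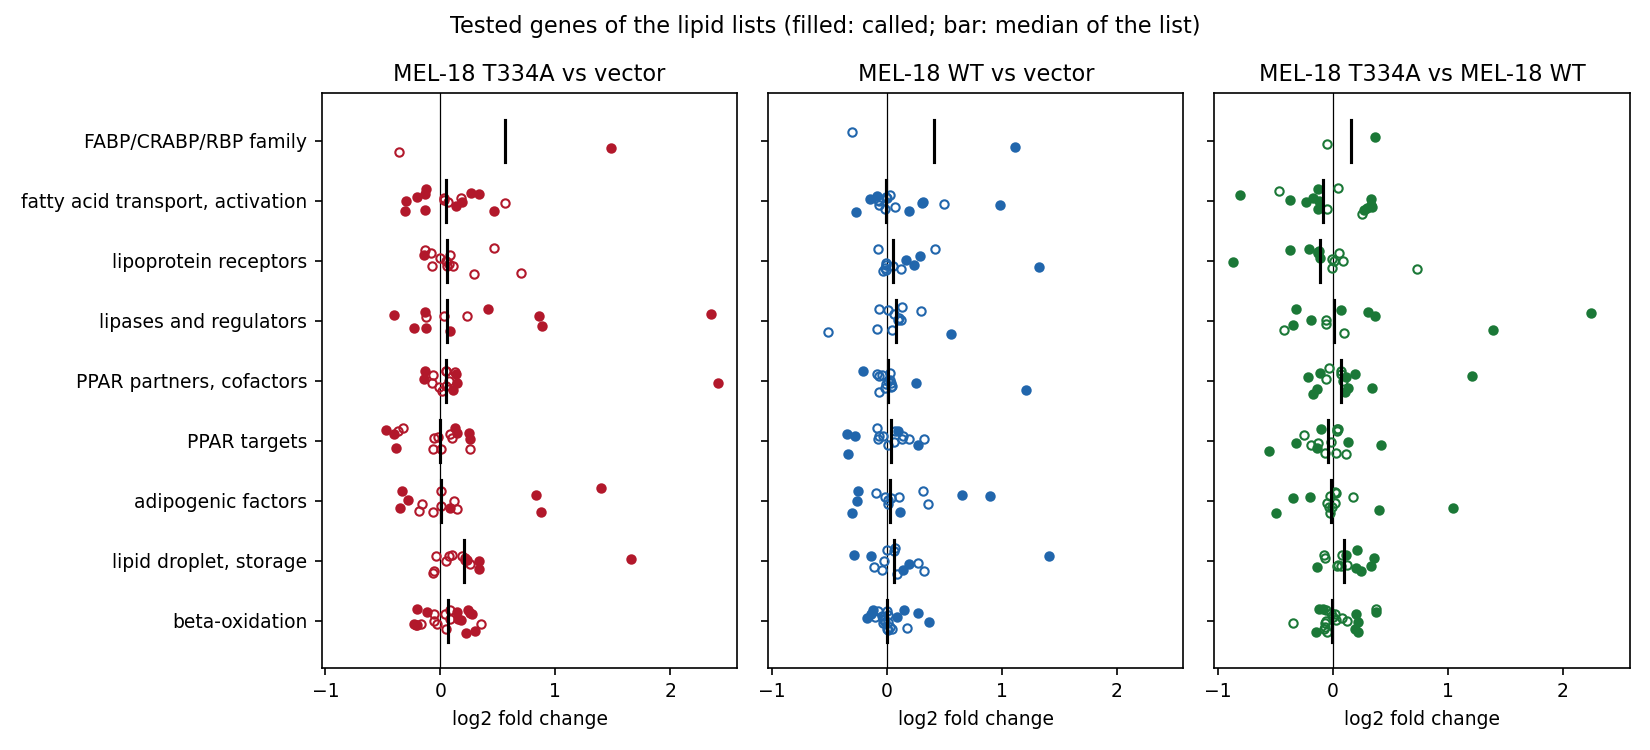
Log2 fold changes of the tested genes of each lipid list in MEL-18 T334A vs vector, MEL-18 WT vs vector and MEL-18 T334A vs MEL-18 WT; each circle is a gene, filled where called, and the black bar is the list's median. Medians lie between -0.11 and 0.20 except for the 2 tested genes of the FABP family; the circle near 2.4 in the left panel among PPAR partners is PRDM16.

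The genes whose profile over the 9 libraries was closest to FABP4 were found by the root mean square difference of log2 CPM (prior count 2), each gene centred on its own mean. The closest 4 with a gene name of their own were GREM1, CDH18, HTR2C and PRDM9, with differences of 0.601, 0.742, 0.745 and 0.748, where the median over all tested genes was 1.63. GREM1, a secreted BMP antagonist, averaged 0.452 ± 0.149 CPM in MEL-18 T334A, was at 0 in every MEL-18 WT library and averaged 0.0912 ± 0.0603 CPM in vector cells. CDH18, a cadherin, averaged 4.01 ± 0.228 CPM in MEL-18 T334A, 0.328 ± 0.116 CPM in MEL-18 WT, against 0.624 ± 0.150 CPM in vector cells. HTR2C, a serotonin receptor, averaged 2.78 ± 0.188 CPM in MEL-18 T334A, 0.523 ± 0.135 CPM in MEL-18 WT, against 2.03 ± 0.329 CPM in vector cells. The order MEL-18 T334A, vector, MEL-18 WT from high to low, which they share with FABP4, follows from picking the closest profiles. None of them belongs to the lipid lists. HTR2C had its vector level nearest to that of MEL-18 T334A, while PRDM9, a meiotic histone methyltransferase, averaged 0.477 ± 0.0437 CPM in MEL-18 T334A, 0.00932 CPM in MEL-18 WT, against 0.0409 CPM in vector cells. GREM1 and PRDM9 were near 0 outside MEL-18 T334A, and the PRDM9 log2 fold change for MEL-18 WT over vector was -1.76 ± 1.14 (SE).

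**Figure D5:**
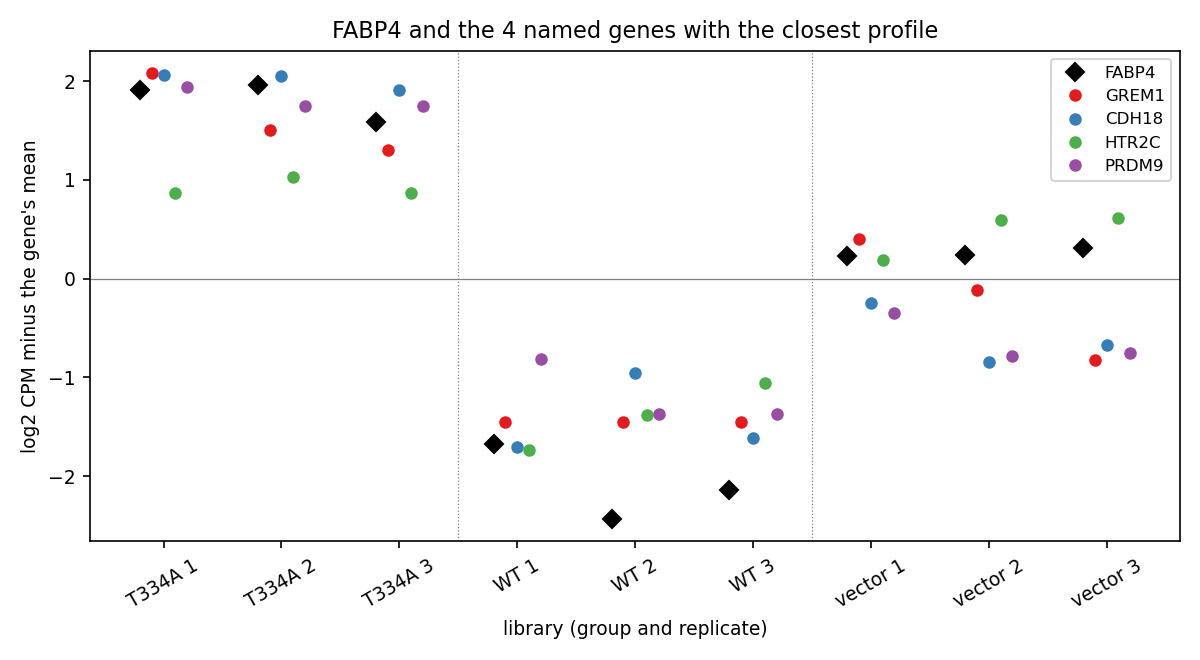
Log2 CPM (prior count 2) minus the gene's mean over the 9 libraries for FABP4 (diamonds) and the 4 closest named genes (circles), by library of MEL-18 T334A, MEL-18 WT and vector cells. All 5 genes are above their mean in each MEL-18 T334A library and below it in each MEL-18 WT library, and the vector libraries lie between for FABP4.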

How the data were processed

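Poly(A)-selected RNA was sequenced from 9 cultures with a stranded TruSeq kit, per the labels' protocols. The deposited files hold raw whole-number counts per gene symbol, which the submitters' processing notes tie to CASAVA 1.8, STAR 2.5.3a, featureCounts (Subread 1.5.3) and hg19. Annotation, strand setting and treatment of multi-mapping reads: not given in the sources used here.

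Genes passing edgeR's filterByExpr (14738 of 26364) were fitted over all 9 libraries with edgeR 4.0.16 in R 4.3.3: TMM factors (0.979 to 1.02), a mean per group, and the quasi-likelihood F test, two-sided. Calls required an adjusted p (Benjamini-Hochberg) below 0.05. CPM were computed over TMM-scaled library sizes, and the SE was obtained as the size of the log2 fold change divided by the root of F. Ratios of summed counts carry exact 95% binomial intervals for counting error only. The common biological coefficient of variation was 2.57%. All 9 replicate pairs within groups differed beyond sampling noise (chi-square per degree of freedom 1.52 to 4.17, the 2 highest for MEL-18 T334A replicate 3). As a check of the code alone, the fits were run on counts simulated from the means and dispersions of these data. Changes were placed only in well-counted genes, so the check does not cover genes of few counts or effects of a transduced line.

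The 8 genes, the lists and the rules were chosen with earlier results of these data known. From each list and comparison the rule named up to 3 called genes with the largest absolute log2 fold change at a mean of at least 1 CPM, and the text gives part of them; some are not reported here. Neighbours and start windows come from RefSeq tables matched by symbol, used for gene order and names or with their own build. Alternatives were DESeq2 1.42.0, limma voom (limma 3.58.1), RLE factors, library totals, other filters, a replicate block, 2 groups alone, a minimum change of 1.5-fold and leaving out each library.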

Additional observations from a re-analysis of the deposited data

How the results depend on the processing

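CD36 in MEL-18 T334A over vector and over MEL-18 WT kept its direction and call under every alternative tried, with log2 fold changes of 4.20 to 4.51 and 3.86 to 4.99 when single libraries were left out, and FABP4 kept its directions (1.52 to 1.70, -2.68 to -2.24 and 3.83 to 4.27 for MEL-18 T334A over vector, MEL-18 WT over vector and MEL-18 T334A over MEL-18 WT). CD36 passed the count filter through its MEL-18 T334A libraries and the FABP4 values chose the set, so neither is further support for the set. Against a minimum change of 1.5-fold, far fewer genes were called in the same order of comparisons: 378, 191 and 187 of all genes in place of 6765, 4242 and 6034, 8, 4 and 2 genes of the lipid and stretch lists together in place of 63, 38 and 63, and 1, 0 and 1 of the 6 tested members in place of 2, 3 and 4. Lost at that minimum, since they lie under it, were PPARG (0.34 over vector, 0.31 over MEL-18 WT, in MEL-18 T334A), FABP5 and VLDLR in MEL-18 WT over vector (0.14 and 0.30) and VLDLR in MEL-18 T334A over MEL-18 WT (-0.31). FABP6 was lost too, in MEL-18 WT over vector (0.83) and MEL-18 T334A over MEL-18 WT (-1.01), although its values lie beyond the minimum. With no filter, FABP5 was called lower in MEL-18 T334A than in MEL-18 WT (-0.0945). It was also called in that comparison without MEL-18 T334A replicate 3 (-0.15) and in MEL-18 T334A over vector without vector replicate 1 (0.12). The cause was not tested.

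Some values that were not called changed sign: VLDLR in MEL-18 T334A over vector was 0.0327 with library totals and 0.000163 with the 1 CPM filter, and CD36 in MEL-18 WT over vector was -0.0722 with limma voom. Leaving out single libraries gave, for MEL-18 T334A over vector, FABP3 -0.58 to 0.0577, FABP5 -0.0107 to 0.12, FABP6 -0.39 to 0.0111 and VLDLR -0.0754 to 0.0831; for MEL-18 WT over vector, CD36 -0.65 to 0.47 and FABP5 0.11 to 0.20; and for MEL-18 T334A over MEL-18 WT, FABP3 -0.0894 to 0.36 and FABP5 -0.15 to -0.0475. Among 77 called values of named genes outside the 8, 64 were lost at the 1.5-fold minimum and 8 under another alternative, and 0 changed sign. Library totals in place of TMM raised the share of calls that were higher to 64.0% and 60.1% for MEL-18 T334A and MEL-18 WT over vector, against 51.1% and 50.1%.

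Same-numbered replicates did not deviate together (correlations of -0.0791 to 0.0137, against -0.0732 to 0.101 for different numbers). No pairing by number was thus seen, though 3 libraries per group cannot exclude one. A replicate block changed no call among the members and gave 6496, 3963 and 5757 called genes, with CD36 at 4.33 in MEL-18 T334A over vector. FABP3 had no value under the 1 CPM filter and CD36 none in MEL-18 WT and vector alone. Depth limits LPL, FABP3, FABP6 and CD36 outside MEL-18 T334A.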
